A study of Mus musculus with 22 samples.

Results

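Committed oligodendrocyte precursors (COPs) are the stage between dividing oligodendrocyte precursor cells (OPCs) and myelin-forming oligodendrocytes, and 8 genes used to recognise them were followed here: Gpr17, Bmp4, Enpp6, Neu4, Fyn, Tmem108, Bcas1 and Nfasc. They were chosen by name, and all 8 were measured, among 16304 genes in the whole-cell count table and 20668 genes in the nuclei count table. The samples were hypothalami of male ob/ob mice, which lack leptin and are obese and diabetic, aged 11 weeks. Each mouse received a single injection of 3 µg fibroblast growth factor 1 (FGF1) or of vehicle (PBS) into the cerebral ventricle, and vehicle mice were pair-fed to the intake of FGF1 mice, so that all groups share the ob/ob genotype and an injection into the ventricle. Hypothalami were taken 1 or 5 days after injection, and each library held 1 mouse.

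Single nuclei were sequenced on Day 1 from 3 FGF1 mice (8620 nuclei) and 3 vehicle mice (4586 nuclei). On Day 5 they came from 2 FGF1 mice (7986 nuclei) and 2 vehicle mice (3773 nuclei). These numbers hold all deposited barcodes, including nuclei that the authors' cell table labels as filtered, which entered no test by cell type. Whole cells were sequenced on Day 5 from a separate cohort of 6 FGF1 mice (25767 cells) and 6 vehicle mice (29123 cells). Whole-cell libraries held between 2652897 and 11866269 transcripts counted as unique molecular identifiers (UMIs), and nuclei libraries between 2721087 and 16345981. Of the barcode sequences, 1791 occurred in more than 1 whole-cell library and 318 in more than 1 nuclei library, and cells were therefore identified by library and barcode together.

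An OPC that leaves the cell cycle passes through the COP stage, during which it stops responding to growth signals that keep it dividing, extends processes and begins to contact axons. Some COPs persist for long periods or die, and others proceed to make myelin, so that genes of this stage mark cells that have recently started to differentiate. In the adult hypothalamus, as in other grey matter, OPCs continue to divide and to supply new oligodendrocytes. The 8 genes have separate roles at this stage. Gpr17 is a G protein-coupled receptor that restrains the final step of differentiation, and Bmp4 is a secreted ligand of the bone morphogenetic protein family that holds back oligodendrocyte differentiation. Enpp6 is a choline-specific glycerophosphodiesterase found at the surface of newly forming oligodendrocytes, and Neu4 is a sialidase, which removes sialic acid from glycoconjugates. Fyn is a Src-family tyrosine kinase that carries signals from adhesion molecules to the cytoskeleton, Tmem108 is a transmembrane protein with a role in intracellular transport, Bcas1 is a protein of newly formed myelinating processes, and Nfasc encodes neurofascin, whose glial isoform joins the myelin loops to the axon beside the node of Ranvier.

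On the mouse assembly GRCm38, Bmp4 lies at chr14:46383520-46390669 on the minus strand, Enpp6 at chr8:46986887-47096762 on the plus strand and Neu4 at chr1:94020451-94028334 on the plus strand. Fyn spans chr10:39368855-39565381 on the plus strand, Tmem108 chr9:103482947-103761837 on the minus strand, Bcas1 chr2:170346991-170427845 on the minus strand and Nfasc chr1:132564690-132741797 on the minus strand. No member shares exon sequence with another gene on its own strand. Exons of Lims2 overlap Gpr17 on the opposite strand, those of Gm16252 overlap Tmem108 and those of Bcas1os1 and Bcas1os2 overlap Bcas1, and whether the deposited counts were made with strand was not given in the sources used here.

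Because Bmp4, Enpp6 and Tmem108 were the members with the largest differences in the lineage as a whole, the 250 bases upstream of their RefSeq transcript starts are given (GRCm38.p6, 5′ to 3′ in the direction of the gene), outside the annotated gene in each case. Capitals mark the E-box CANNTG, which basic helix-loop-helix factors such as Olig2 can read, and the SOX motif ACAANG, both searched on both strands; no base fell in both motifs.
Bmp4, chr14:46390670-46390919, minus strand: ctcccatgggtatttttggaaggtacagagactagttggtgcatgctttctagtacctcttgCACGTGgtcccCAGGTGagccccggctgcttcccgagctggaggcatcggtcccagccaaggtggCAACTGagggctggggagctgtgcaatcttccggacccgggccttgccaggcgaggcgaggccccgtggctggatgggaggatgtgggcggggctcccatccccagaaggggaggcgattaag
Enpp6, chr8:46986637-46986886, plus strand: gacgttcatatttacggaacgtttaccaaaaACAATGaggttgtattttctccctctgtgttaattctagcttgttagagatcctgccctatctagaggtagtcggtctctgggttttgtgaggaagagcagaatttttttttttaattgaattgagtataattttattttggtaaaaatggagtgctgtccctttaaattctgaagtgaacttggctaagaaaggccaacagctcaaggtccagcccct
Tmem108, chr9:103761838-103762087, minus strand: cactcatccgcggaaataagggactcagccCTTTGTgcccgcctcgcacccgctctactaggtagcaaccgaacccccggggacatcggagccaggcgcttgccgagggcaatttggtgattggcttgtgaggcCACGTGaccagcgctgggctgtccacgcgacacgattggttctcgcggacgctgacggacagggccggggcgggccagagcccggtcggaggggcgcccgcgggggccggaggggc
The E-box occurred 3 times in the Bmp4 window, 1 time in the Tmem108 window and not in the Enpp6 window. The SOX motif occurred 1 time each in the Enpp6 and Tmem108 windows and not in the Bmp4 window. Among 32851 promoter windows of the same length, 66.2% held an E-box and 36.3% held the SOX motif, so that both motifs are common in windows of this kind. The table held promoters for 6 of the 8 members.

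The whole cells carried cluster numbers but no names, so clusters were named from marker genes that include none of the 8 members. Cluster 9 held 17 of the 20 markers of the COP stage at the set threshold and is called COP-like; clusters 5 and 17 are called OPC-like, clusters 2, 11 and 12 oligodendrocyte-like, and these classes together are called the lineage (15638 cells). The clusters had been made from expression in the same cells, members included, so that the levels of the members by class are a description and were not tested. COP-like cells numbered 1583 in FGF1 mice (174 to 372 per mouse) and 164 in vehicle mice (16 to 51 per mouse). All 8 members had their highest level of 11 cell types in the COP-like class, in both groups of mice.

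In vehicle mice (n = 6, CPM, the counts of a gene scaled to a fixed total per mouse and class, without further scaling factors), Gpr17 stood at 2451 ± 952 CPM (SD) in COP-like and 679 ± 88.6 CPM in OPC-like cells, whose ranges did not overlap, and at or below 16.4 CPM elsewhere. Bmp4 was at 215 ± 129 CPM in COP-like cells, and its next highest type, pericyte-like cells at 28.7 ± 25.6 CPM, overlapped the lower COP-like mice. Enpp6 was at 607 ± 95 CPM in COP-like cells and 25.2 ± 5.39 CPM in oligodendrocyte-like cells, and 0 of 2448 OPC-like cells held a UMI of it, which allows a share of up to 0.123%. The opposite neighbour was seen for Neu4, which was nearly as high in OPC-like cells (382 ± 29.2 CPM) as in COP-like cells (540 ± 134 CPM), with overlapping ranges, and at or below 8.16 CPM in the other types.

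Among the kinase, transport and myelin genes, Fyn stood at 2160 ± 292 CPM in COP-like cells and 179 ± 18.9 CPM in OPC-like cells of vehicle mice. Tmem108 was at 736 ± 117.2 CPM in COP-like cells, and its next types, ependymal-like (69.7 ± 9.70 CPM) and OPC-like cells (51.8 ± 17.2 CPM), overlapped each other. Bcas1 was at 1464 ± 155 CPM in COP-like cells, while OPC-like (231 ± 28.8 CPM) and oligodendrocyte-like cells (219 ± 16.9 CPM) did not separate. Nfasc was at 2615 ± 1067 CPM in COP-like cells, at 306 ± 36.3 CPM in oligodendrocyte-like and at 93.7 ± 11.9 CPM in OPC-like cells. Outside COP-like cells, Gpr17 and Neu4 thus stood higher on the precursor side than on the mature side, as did Fyn and Tmem108. Enpp6 and Nfasc stood higher on the mature side, and Bcas1 was nearly alike on both sides.

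Free RNA in droplets can give UMIs of a gene in cells that do not express it. Microglia-like cells, a type outside the lineage, are given beside the COP-like cells, and how much of their member UMIs is free RNA was not tested. Their share of cells with a UMI in vehicle mice was 12.7% for Bcas1, 5.75% for Fyn, 3.45% for Nfasc and 1.67% for Gpr17. It was 0.941% for Neu4, 0.314% for Tmem108 and 0.209% for Enpp6. For Bmp4 it was 0 of 956 cells, which allows a share of up to 0.314% (3 counts, counting error only). In COP-like cells of the same mice the shares were 89.0% for Bcas1, 93.9% for Fyn, 64.6% for Nfasc, 90.9% for Gpr17, 64.0% for Neu4, 59.8% for Tmem108, 56.7% for Enpp6 and 30.5% for Bmp4. The median depth was 1140 UMIs per microglia-like and 1984 UMIs per COP-like cell in vehicle mice (medians over mice). Every COP-like share stood well above its microglia-like value. In microglia-like cells of FGF1 mice (914 cells, median 1296 UMIs) the share was 14.0% for Bcas1, 8.97% for Fyn, 4.38% for Nfasc, 1.09% for Neu4, 0.985% for Tmem108, 0.766% for Enpp6 and 3 of 914 cells for Bmp4, each above its vehicle value. Only Gpr17, at 1.53%, was below its vehicle value of 1.67%. The microglia-like level of Fyn was 96.7 ± 52.4 CPM with FGF1 and 51.8 ± 15.1 CPM with vehicle (SD, n = 6 each), with overlapping mice and too few UMIs to test.

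COP-like cells made up a far larger part of the lineage in FGF1 mice on Day 5. Their share of lineage cells ran from 16.0% to 38.3% with a median of 26.0% in the 6 FGF1 mice, and from 0.870% to 3.42% with a median of 2.08% in the 6 vehicle mice. Every FGF1 mouse lay above every vehicle mouse. The means were 26.2 ± 7.97% and 2.11 ± 0.985% (SD, n = 6 each; difference 24.1 percentage points, two-sided exact permutation p = 0.00216, the smallest that 6 mice against 6 allow, Benjamini-Hochberg adjusted p = 0.00519 over 12 shares). Within the 6 batches named in the deposited cell table, each holding 1 mouse of either group, the difference was between 14.6 and 37.5 points. The permutation ran over all mice and not within batches, where fewer arrangements exist and the smallest p would be larger. The members also differed in level within the class, as given below, and they had entered the clustering. A share that does not use them, cells with a UMI of at least 5 of 19 other COP genes after thinning every cell to 750 UMIs, was 21.4 ± 5.86% in FGF1 and 1.71 ± 0.895% in vehicle mice (exact permutation p = 0.00216), and this definition held 79.7% of COP-like, 0.687% of OPC-like and 0.161% of oligodendrocyte-like cells.

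OPC-like cells were 23.5% of the lineage in FGF1 and 28.6% in vehicle mice (exact permutation p = 0.320), and oligodendrocyte-like cells were 50.3 ± 11.6% and 69.2 ± 9.24% (SD, exact permutation p = 0.0195, adjusted p = 0.026). Single clusters inside these classes also differed: cluster 17, an OPC-like cluster led by the dividing-cell genes Ube2c, Top2a and Birc5, was 1.80 ± 1.14% of lineage cells with FGF1 and 0.172 ± 0.142% with vehicle, without overlap (SD, exact permutation p = 0.00216, adjusted p = 0.00519), and the oligodendrocyte-like cluster 2 was 25.6 ± 13.7% and 57.7 ± 7.52% (exact permutation p = 0.00433, adjusted p = 0.00866). Shares are relative to one another within a sample, so a rise in one class lowers the others. As a share of all cells of a mouse, COP-like cells were 7.17 ± 3.68% with FGF1 and 0.625 ± 0.256% with vehicle.

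**Figure D1:**
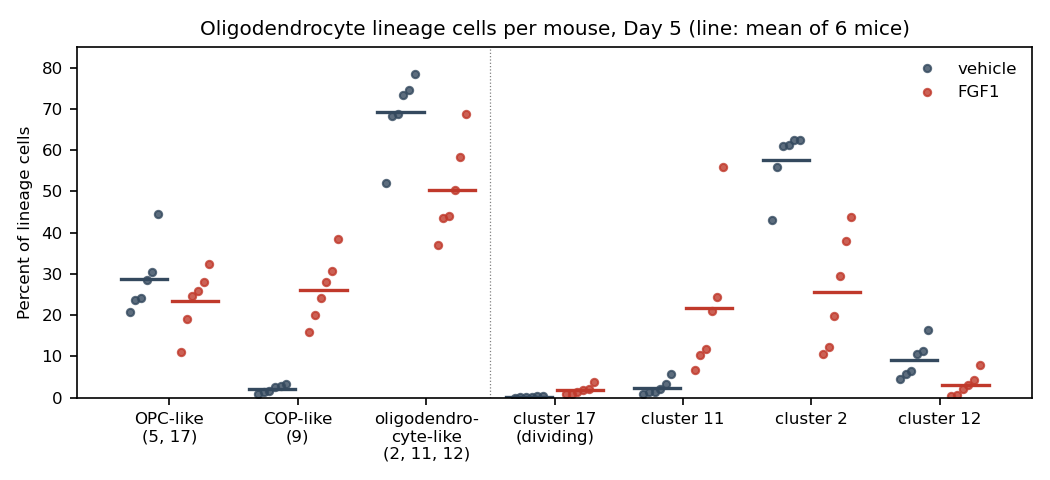
Share of lineage cells on Day 5 (y axis, percent) in the 3 classes and, right of the dotted line, in clusters 17, 11, 2 and 12, with a point for each of 6 FGF1 (red) and 6 vehicle (dark) mice and a line at the mean. COP-like shares sit between 16.0% and 38.3% with FGF1 and between 0.870% and 3.42% with vehicle, while OPC-like shares overlap.

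With all lineage cells of a mouse summed, all 8 members were higher in FGF1 mice (8 of 8 higher by edgeR's quasi-likelihood test at a false discovery rate, FDR, below 0.05, where 9.57% of all 10283 genes tested were higher; median log2 difference 2.24 for members and −0.02 for all genes). In summed counts a change in the mix of cells and a change in the level per cell cannot be told apart. Values below are CPM after edgeR's TMM scaling, given as the lowest, median and highest mouse of 6. Gpr17 ran 604, 813 and 1369 with FGF1 against 171, 266 and 423 with vehicle, a log2 difference of 1.70 ± 0.24 (SE, FDR = 0.000199). Bmp4 ran 67.4, 139 and 255 against 1.27, 6.88 and 14.9, a log2 difference of 4.34 ± 0.54 (FDR = 0.000256). For the receptor and the ligand alike, the lowest FGF1 mouse lay above the highest vehicle mouse; the groups did not overlap for 7.26% of all genes tested. Marker genes of other cell types differed in the same pooled counts, with 5 of 6 astrocyte genes lower (median log2 difference −0.81), 5 of 6 neuron genes lower (−0.96) and 2 of 4 tanycyte genes higher (0.83), and their part in the member values was not tested.

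Of the surface and sialic acid enzymes, Enpp6 ran 203, 265 and 321 CPM in the pooled lineage of FGF1 mice against 24.7, 36.7 and 43.6 CPM with vehicle (log2 difference 2.91 ± 0.14, FDR = 4.72e-12). Neu4 ran 173, 257 and 362 against 80.0, 118 and 186 CPM (1.04 ± 0.21, FDR = 0.00279). Enpp6 separated the groups by a wide margin. Neu4, the member most shared with OPC-like cells, was the only one of the 8 whose groups overlapped, where 7.26% of all genes did not overlap. Fyn ran 808, 1010 and 1564 against 113, 163 and 215 CPM (2.75 ± 0.17, FDR = 6.48e-10). Tmem108 ran 291, 369 and 465 against 35.0, 50.4 and 71.5 CPM (2.90 ± 0.17, FDR = 1.42e-10). The kinase and the transport gene were each separated completely between the groups. Bcas1 ran 705, 873 and 1162 against 236, 261 and 302 CPM (1.73 ± 0.12, FDR = 9.4e-10). Nfasc ran 822, 1023 and 1157 against 259, 317 and 370 CPM (1.65 ± 0.12, FDR = 1.73e-09). Both myelin genes were separated completely between the groups.

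The part of the UMIs that each class supplied differed between the groups. COP-like cells held 98.9% of lineage Bmp4 UMIs with FGF1 and 85.9% with vehicle. For Fyn the part from COP-like cells was 91.6% and 37.0%, for Tmem108 92.7% and 38.6%, for Enpp6 93.0% and 43.0%, and for Gpr17 86.8% and 28.4%. It was lowest for Nfasc (78.2% and 18.99%), Bcas1 (78.8% and 14.8%) and Neu4 (77.6% and 13.5%). These are sums over all mice of a group, in which a mouse with more cells weighs more.

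The share of lineage cells with a UMI of each member, after thinning every cell to 750 UMIs, was higher in every FGF1 mouse than in every vehicle mouse for 7 of 8 members (groups did not overlap for 3.66% of 11470 genes). The share was 27.6 ± 7.76% against 13.4 ± 3.38% for Gpr17, 29.3 ± 6.61% against 8.56 ± 1.42% for Fyn, and 33.0 ± 5.16% against 15.8 ± 1.49% for Bcas1 (SD, n = 6 each). It was 6.70 ± 3.33% against 0.417 ± 0.34% for Bmp4, 11.5 ± 2.77% against 1.83 ± 0.418% for Enpp6, 16.0 ± 3.39% against 2.64 ± 0.418% for Tmem108 and 31.7 ± 2.88% against 15.9 ± 1.22% for Nfasc. Neu4, at 13.7 ± 4.48% against 8.11 ± 2.63%, overlapped. The exact permutation p of the 7 was 0.00216, the smallest possible, with an adjusted p of 0.0591, so that 0 members passed (0.0% of all genes passed), whereas without thinning all 8 passed at an adjusted p of 0.0493 (4.39% of genes passed). With at least 2 UMIs required and no thinning, all 8 were at the smallest p with an adjusted p of 0.066, and 0 passed. At this number of mice the adjusted value turns on how many other genes reach the smallest p.

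**Figure D2:**
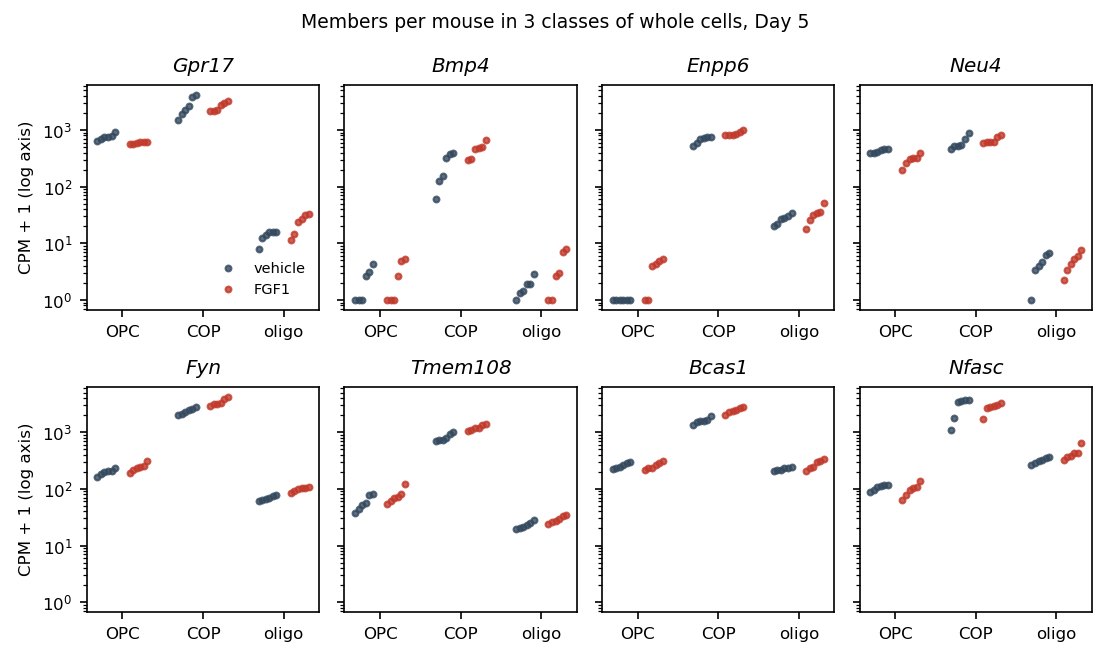
Level of each member in OPC-like, COP-like and oligodendrocyte-like cells on Day 5 (log y axis, TMM-scaled CPM plus 1), with a point for each of 6 FGF1 (red) and 6 vehicle (dark) mice, sorted within each group. COP-like levels are the highest of the 3 classes for nearly all mice, and within that class Enpp6, Fyn, Tmem108 and Bcas1 do not overlap between the groups (1.94% of 4171 genes do not).

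Within COP-like cells the differences were smaller, and Fyn, Tmem108 and Bcas1 passed the test (3 of 8 members higher, against 0.743% of 4171 genes; median log2 difference 0.47 for members and 0.02 for all genes). Marker genes of other types in these cells had medians of −0.53 for astrocyte genes (0 of 5 tested passed) and −0.66 for neuron genes (0 of 4), and their part in the member values was not tested. Vehicle mice gave only 16 to 51 COP-like cells each, which limits the precision. The median depth of these cells over mice was 1844 UMIs with FGF1 and 1984 with vehicle. Fyn ran 2923, 3208 and 4138 CPM in COP-like cells of FGF1 mice against 2030, 2406 and 2773 CPM with vehicle (log2 difference 0.52 ± 0.13, FDR = 0.0279). Tmem108 ran 1066, 1181 and 1381 against 710, 763 and 995 CPM (0.58 ± 0.14, FDR = 0.0277). Bcas1 ran 2023, 2399 and 2738 against 1364, 1602 and 1971 CPM (0.56 ± 0.13, FDR = 0.0172). None of these 3 genes overlapped between the groups, as for 1.94% of the genes tested. The calls did not hold throughout: 0 members passed after thinning to 750 UMIs per cell, 1 (Bcas1) with RLE scaling and 1 (Tmem108) with at least 30 cells per mouse. They were also sensitive to single mice: 0 members passed without FGF1 mouse 10, 21, 36 or 7, 1 passed without FGF1 mouse 6 and 4 passed without vehicle mouse 22, and over all such omissions the FDR ran from 0.00694 to 0.205 for Fyn, from 0.00744 to 0.118 for Tmem108 and from 0.00464 to 0.104 for Bcas1.

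The receptor, the ligand and the enzymes did not pass within COP-like cells. Gpr17 ran 2168, 2472 and 3293 CPM against 1523, 2454 and 4183 CPM (−0.11 ± 0.20, FDR = 0.868), and Neu4 ran 596, 619 and 825 against 462, 526.5 and 876 CPM (0.10 ± 0.16, FDR = 0.853). Both had vehicle mice on either side of all FGF1 mice. Bmp4 ran 300, 472 and 662 against 59.1, 237 and 386 CPM (0.95 ± 0.35, FDR = 0.256), and Enpp6 ran 811, 832 and 984 against 521, 708 and 761 CPM (0.41 ± 0.15, FDR = 0.199). Enpp6 was thus higher in every FGF1 mouse without passing, and Bmp4 overlapped. The balance between the enzyme and the ligand, Enpp6 UMIs as a share of Enpp6 and Bmp4 UMIs together, was 66.2 ± 7.85% with FGF1 and 75.4 ± 11.7% with vehicle (SD, exact permutation p = 0.143).

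Nfasc ran 1741, 2826 and 3290 CPM with FGF1 against 1089, 3488 and 3766 CPM with vehicle in COP-like cells (log2 difference −0.03 ± 0.29, FDR = 0.984). Vehicle mice 22 and 35 were low for Nfasc, at 1783 and 1089 CPM, and the same 2 mice had the highest Gpr17 of the group, at 3816 and 4183 CPM. Cells inside the COP-like class of FGF1 mice also differed, each cell being thinned to 750 UMIs before it was sorted by whether it held a UMI of the member. COP-like cells with an Nfasc UMI carried 26.5 UMIs of mature oligodendrocyte genes per 10000 UMIs against 14.6 in those without, higher in 6 of 6 mice, and cells with a Gpr17 UMI carried 21.2 against 28.5, lower in 6 of 6 mice. Cells with a Neu4 UMI carried more OPC gene UMIs (11.6 against 8.67 per 10000, 6 of 6 mice) and fewer mature gene UMIs (19.6 against 25.2, lower in 6 of 6). Cells with a Bmp4 UMI also carried fewer mature gene UMIs (20.9 against 24.0, lower in 6 of 6), and those with an Enpp6 UMI slightly more (25.1 against 22.1, higher in 5 of 6). For mature gene UMIs the values were 22.5 with and 28.1 without a Fyn UMI (lower in 6 of 6), 24.9 and 21.5 for Tmem108 (higher in 5 of 6), and 23.1 and 23.5 for Bcas1 (higher in 2 of 6). OPC gene UMIs were 9.79 with and 9.61 without a Bmp4 UMI (higher in 3 of 6). In the few vehicle mice with enough cells of both kinds, mature gene UMIs for Fyn lay the other way, at 18.3 with and 13.7 without (higher in 2 of 2). They were 29.4 and 33.4 for Tmem108 (higher in 2 of 3) and 19.6 and 31.6 for Bcas1 (higher in 0 of 2). OPC gene UMIs for Fyn were 13.9 with and 22.8 without in vehicle mice (higher in 0 of 2) and 9.70 and 8.93 in FGF1 mice (higher in 4 of 6). These values describe the clustered cells and were not tested.

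Members were found together in single COP-like cells. After thinning to 750 UMIs, a COP-like cell held a UMI of 4.56 ± 0.154 of the 8 members with FGF1 and 3.92 ± 0.419 with vehicle (SD over 6 mice each), and 78.5 ± 4.51% and 58.9 ± 12.0% of COP-like cells held at least 4 members. In OPC-like cells this last share was 0.623% with FGF1 and 0.380% with vehicle, and in oligodendrocyte-like cells 0.117% and 0.00804%. Joint detection of several members was thus nearly absent in the neighbouring classes of both groups. The clusters had been made with the members included, so this describes the clustered cells and was not tested.

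In OPC-like cells, before the COP stage, Neu4 fell and the other members tested did not pass (1 of 6 members lower, against 1.54% of 5529 genes). Neu4 ran 198, 309 and 385 CPM in OPC-like cells of FGF1 mice against 397, 419 and 460 CPM with vehicle (log2 difference −0.50 ± 0.12, FDR = 0.0142), without overlap (1.94% of genes did not overlap). Gpr17 ran 569, 600 and 624 against 641, 756 and 909 CPM (−0.35 ± 0.11, FDR = 0.055), also without overlap but just short of the threshold. Cluster 17, with its dividing cells, made up 104 of the 1481 OPC-like cells of FGF1 mice and 11 of the 2448 of vehicle mice. In cluster 5 alone both genes overlapped between the groups, at −0.43 ± 0.12 (FDR = 0.0452) for Neu4 and −0.32 ± 0.10 (FDR = 0.0901) for Gpr17. Leaving out FGF1 mouse 10 ended the Neu4 call (FDR = 0.053), while leaving out vehicle mouse 29 brought Gpr17 past the threshold too (FDR = 0.0314). Fyn (0.23 ± 0.13, FDR = 0.352), Tmem108 (0.31 ± 0.21, FDR = 0.474), Bcas1 (−0.01 ± 0.12, FDR = 0.981) and Nfasc (−0.10 ± 0.17, FDR = 0.82) overlapped. Bmp4 and Enpp6 were too low in OPC-like cells to test, with medians of 0.827 and 3.13 CPM in FGF1 mice. UMIs of neuron marker genes in OPC-like cells were 10.0 to 11.7 per 10000 with FGF1 and 13.3 to 14.6 with vehicle, 1 of 5 tested being lower, and their part in the Neu4 difference was not tested.

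In oligodendrocyte-like cells Fyn was higher with FGF1 and the other 5 members tested did not pass (1 of 6 higher, against 1.13% of 8438 genes). Fyn ran 82.3, 102 and 108 CPM against 61.2, 66.5 and 76.3 CPM (log2 difference 0.54 ± 0.12, FDR = 0.012), without overlap (1.53% of genes did not overlap). Nfasc ran 319, 400 and 640 against 260, 314 and 361 CPM (0.44 ± 0.14, FDR = 0.081), and Gpr17 ran 10.5, 24.3 and 32.3 against 7.05, 13.6 and 14.7 CPM (0.72 ± 0.27, FDR = 0.142). Nfasc passed without FGF1 mouse 28 (FDR = 0.0441) or 36 (FDR = 0.0465). UMIs of the COP genes that are no members were 16.8 to 21.7 per 10000 in these cells with FGF1 and 13.8 to 16.3 with vehicle, and whether they account for the Fyn value was not tested. Of the marker genes of other types in these cells, 3 of 6 astrocyte genes were lower (median log2 difference −0.62), 2 of 4 tanycyte genes higher (1.08), 1 of 5 ependymal genes higher (0.34) and 1 of 6 neuron genes lower (−0.74), and their part in the Fyn value was not tested. Enpp6 (0.37 ± 0.20, FDR = 0.342), Tmem108 (0.38 ± 0.17, FDR = 0.223) and Bcas1 (0.28 ± 0.12, FDR = 0.197) overlapped, and Bmp4 and Neu4 were too low to test.

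The oligodendrocyte-like clusters did not change in proportion alike: cluster 11 was 21.6 ± 18.1% of lineage cells with FGF1 and 2.38 ± 1.84% with vehicle (exact permutation p = 0.00216), and cluster 2 was 25.6% and 57.7%. Without cluster 11 the Fyn difference was 0.68 ± 0.13 (FDR = 0.0077). In cluster 11 itself, where vehicle mice gave 17 to 56 cells each, Fyn was too low to test. A UMI of it was held by 14.4% of 1212 FGF1 cells and 16.9% of 166 vehicle cells. In the whole class these shares were 14.7% and 9.16%, above the microglia-like shares of either group. Inside cluster 11, Nfasc stood at 734 ± 235 CPM with FGF1 and 1553 ± 327 CPM with vehicle (SD; log2 difference −1.11 ± 0.20, FDR = 0.00129; lower calls made up 3.97% of the 1613 genes tested), with overlapping mice. Nfasc thus lay higher with FGF1 in the class as a whole, short of the threshold, and lower inside cluster 11.

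**Figure D3:**
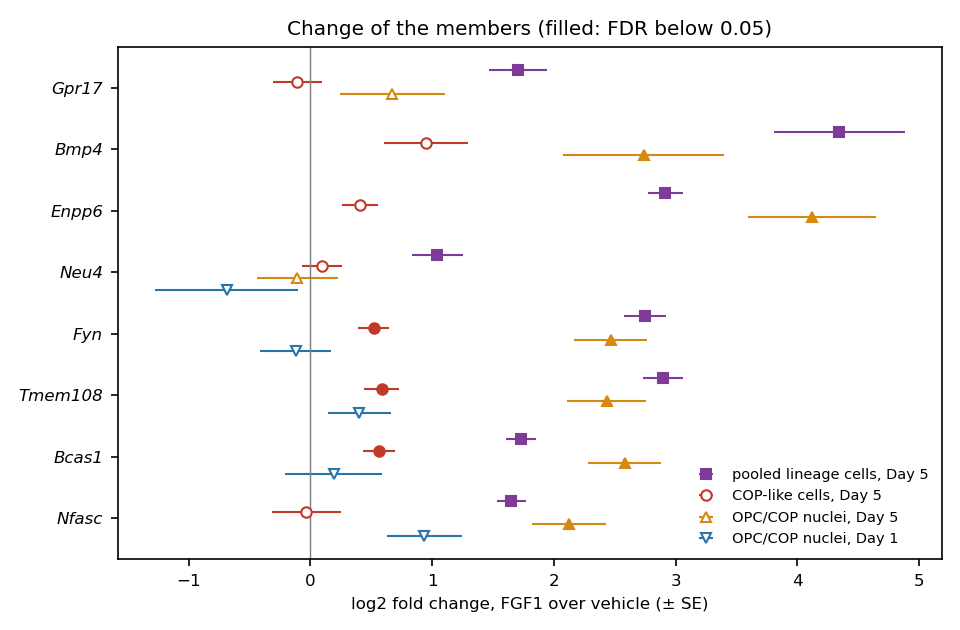
Log2 fold change, FGF1 over vehicle (x axis, bars are standard errors), of each member in pooled lineage cells and COP-like cells of Day 5 and in OPC/COP nuclei of Day 5 and Day 1; filled points have an FDR below 0.05. Pooled-lineage values run from 1.04 for Neu4 to 4.34 for Bmp4, and COP-like values from −0.11 for Gpr17 to 0.95 for Bmp4.

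Every mouse was then given the same mix of classes: 14.1% COP-like, 26.1% OPC-like and 59.8% oligodendrocyte-like cells, the mean over the 12 mice. Class levels were in CPM without further scaling, and log2 was taken of CPM + 1. The fixed mix took away most of the pooled difference. The classes rest on clusters made with the members included, so a fixed mix can also take away differences in member level. Fyn went from a log2 difference of 2.77 to 0.45 and Tmem108 from 2.92 to 0.49, each with FGF1 mice all above vehicle mice (exact permutation p = 0.00216, adjusted p = 0.124; the smallest p was reached by 1.75% of 11470 genes). Enpp6 went from 2.91 to 0.32 (exact permutation p = 0.00866), Bcas1 from 1.75 to 0.38 (exact permutation p = 0.00433) and Bmp4 from 4.23 to 1.07 (exact permutation p = 0.039). Gpr17 went from 1.76 to −0.13 (exact permutation p = 0.506), Neu4 from 1.08 to −0.20 (exact permutation p = 0.0779) and Nfasc from 1.68 to 0.13 (exact permutation p = 0.582). None of the 11470 genes (0.0%) passed after adjustment; with 6 mice against 6 the smallest p passes only if enough genes reach it, so the values are read by size. The largest part left was that of Bmp4, and the receptor and sialidase were left with values below 0.

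**Figure D4:**
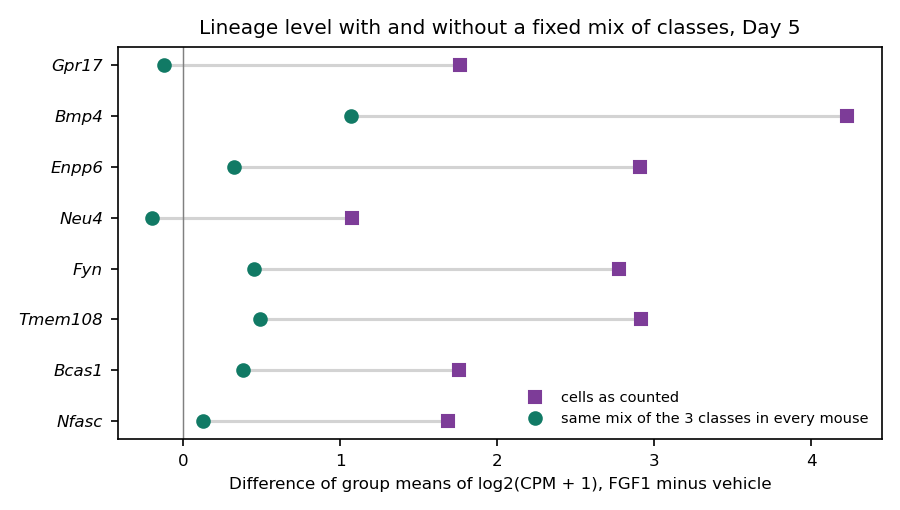
Difference of group means of log2(CPM + 1) between 6 FGF1 and 6 vehicle mice in the lineage on Day 5 (x axis) for each member, with cells as counted (squares) and with the same mix of the 3 classes in every mouse (circles). Squares run from 1.08 to 4.23 and circles from −0.20 to 1.07.

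Nuclei came from other mice and add Day 1. The authors' cell table has 1 label for OPC and COP nuclei together, so a difference there can come from the mix of both stages or from levels, which cannot be told apart. On Day 5 this label held 287 nuclei of FGF1 mice (85 and 202) and 69 of vehicle mice (52 and 17), and over all days UMIs of neuron genes were at 108 to 155 per 10000 in these nuclei. Of the 8 members 6 were higher with FGF1 (against 0.85% of 5767 genes; median log2 difference 2.45 for members and 0.00 for all genes). DESeq2 called 5 of them and gave no adjusted p for the sixth, Bmp4. Enpp6 stood at 215 and 359 CPM in the 2 FGF1 mice against 13.3 and 17.8 CPM in the 2 vehicle mice (log2 difference 4.12 ± 0.53, FDR = 2.26e-05). Fyn stood at 1069 and 1336 against 172 and 293 CPM (2.47 ± 0.30, FDR = 1.24e-05), and Tmem108 at 1066 and 1957 against 199 and 333 CPM (2.43 ± 0.32, FDR = 5.15e-05). These 3 genes did not overlap between the groups, but with 2 mice against 2 neither did 39.8% of all genes tested. Over the alternatives that kept all mice (edgeR or DESeq2), the FDR reached 0.0578 for Enpp6, which then did not pass. It reached 0.047 for Fyn and 0.0187 for Bcas1, whose levels follow.

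Of the myelin genes in the same Day 5 nuclei, Bcas1 stood at 818 and 1004 against 106 and 178 CPM (2.58 ± 0.30, FDR = 1.02e-05) and Nfasc at 667 and 926 against 120 and 220 CPM (2.12 ± 0.30, FDR = 0.000113). Bmp4, the ligand, stood at 67.0 and 98.7 against 11.9 and 13.3 CPM (2.74 ± 0.66, FDR = 0.0302). Over the alternatives that kept all mice its edgeR FDR ran from 0.00667 to 0.0692. Each omission of a mouse left a single mouse in that group, and the Bmp4 log2 difference then ran from 2.40 to 2.98. Gpr17 stood at 86.8 and 112 against 53.2 and 65.4 CPM (0.67 ± 0.43, FDR = 0.672) and Neu4 at 126 and 148 against 143 and 160 CPM (−0.11 ± 0.33, FDR = 0.965). Gpr17 and Neu4, the 2 members with the highest levels in OPC-like whole cells of vehicle mice, were thus the 2 that did not pass. With each nucleus thinned to a common number of UMIs, the share with a UMI of at least 4 members was 42.4% (exact Clopper-Pearson 95% interval 31.7 to 53.6) and 60.4% (53.3 to 67.2) in the FGF1 mice. In the vehicle mice it was 5.77% (1.21 to 15.9) and 0 of 17 nuclei (0 to 19.5), where the limit of 3 counts allows a share of up to 17.6%. Without thinning, the shares were 58.8% and 88.1% with FGF1 and 13.5% and 23.5% with vehicle. In the same nuclei the summed OPC genes were at 26.9 and 17.2 UMIs per 10000 with FGF1 and 37.1 and 35.4 with vehicle, and the COP genes that are no members at 79.7 and 110 against 35.1 and 30.7. Mature oligodendrocyte genes were at 2.37 and 5.40 UMIs per 10000 with FGF1 and 1.78 and 0.36 with vehicle, and 2 of 3 tested were higher, Mag (4.69, FDR = 0.00464) and Cldn11 (2.62, FDR = 0.027), with a list median of 2.62.

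On Day 1 none of the members passed in OPC/COP nuclei (0 of 5 tested by edgeR and 0 by DESeq2; 0.0892% of 4485 genes were called in either direction; 1 member, Nfasc, had an unadjusted p under 0.05). The label held 164 nuclei of 3 FGF1 mice (21 to 75) and 142 of 3 vehicle mice (42 to 54). In simulated counts of this size the edgeR fit found 2 of 94 genes changed 1.5-fold and 70 of 83 changed 4-fold. Nfasc stood at 289, 442 and 634 CPM against 186, 235 and 265 CPM (log2 difference 0.94 ± 0.31, unadjusted p = 0.00904 and FDR = 0.597 from edgeR's fit across all genes), with all FGF1 mice above all vehicle mice, where 12.4% of genes did not overlap. Tmem108 stood at 435, 678 and 683 against 375, 448 and 515 CPM (0.40 ± 0.26, FDR = 0.873), and Fyn at 289, 309 and 399 against 263, 311 and 513 CPM (−0.12 ± 0.30, FDR = 0.974). Apart from Nfasc, the members overlapped between the groups. Bcas1 stood at 143, 309 and 358 against 157, 175 and 342 CPM (0.19 ± 0.40, FDR = 0.972), and Neu4 at 31.3, 81.3 and 96.8 against 56.0, 60.1 and 193 CPM (−0.69 ± 0.59, FDR = 0.889). The receptor, the ligand and Enpp6 were too low to test on Day 1, with Gpr17 at 17.4, 24.2 and 81.3 against 10.9, 11.2 and 33.1 CPM, Bmp4 at 0, 0 and 3.48 against 0, 5.52 and 21.9 CPM and Enpp6 at 12.1, 17.4 and 97.5 against 27.3, 44.1 and 44.8 CPM. The thinned share of nuclei with at least 4 members was 7.35%, 1.33% and 14.3% with FGF1 and 6.52%, 5.56% and 7.14% with vehicle, from 1 to 5 such nuclei per mouse, with exact Clopper-Pearson 95% intervals that overlapped throughout. Without thinning these shares were 13.2%, 8% and 23.8% with FGF1 and 34.8%, 14.8% and 19.05% with vehicle.

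The difference between the days was itself tested. The Day 5 effect of FGF1 exceeded the Day 1 effect for Fyn by 2.56 ± 0.46 on the log2 scale (edgeR FDR = 0.0182; 0.102% of 5875 genes passed as higher). It did not pass for Enpp6 (4.58 ± 0.94, FDR = 0.0617), Tmem108 (2.05, FDR = 0.0928), Bcas1 (2.43, FDR = 0.132), Nfasc (1.22, FDR = 0.687) or Bmp4 (4.67 ± 1.73, FDR = 0.58), nor for Neu4 (0.59) and Gpr17 (0.02). The Fyn call was lost with the batch as a block (FDR = 0.101) and after thinning (FDR = 0.307). It was also lost without Day 1 FGF1 mouse 2 or Day 1 vehicle mouse 1, each with 0 members passing, while omitting Day 1 FGF1 mouse 1 gave 4. Omitting a Day 5 mouse leaves a single mouse in its group, and those fits are not counted. DESeq2 called 3 members, Fyn, Tmem108 and Bcas1.

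**Figure D5:**
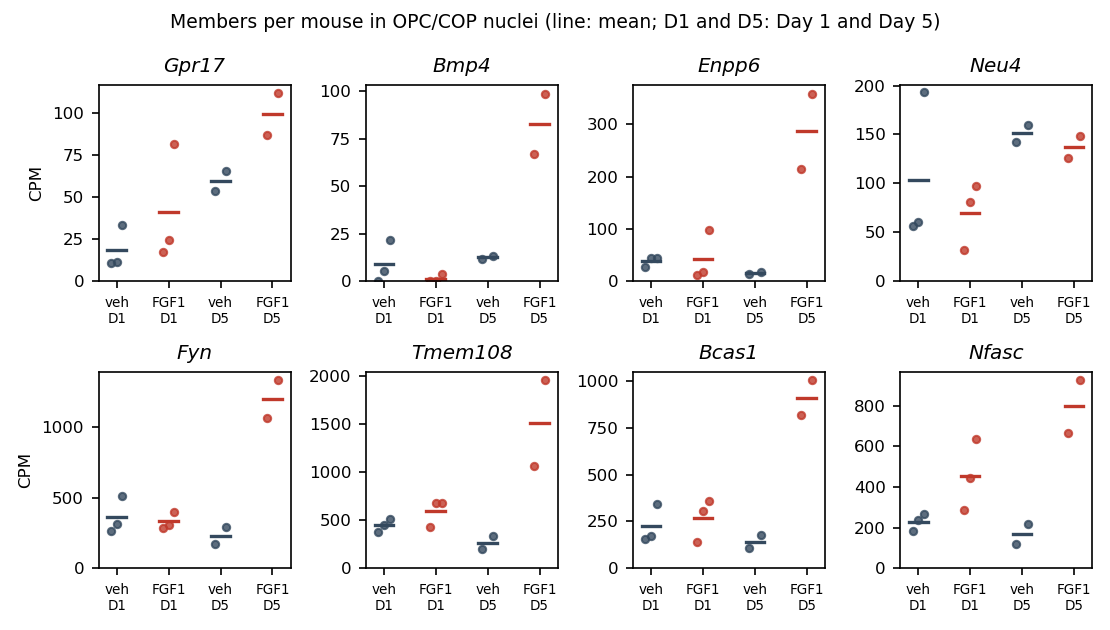
Level of each member in OPC/COP nuclei (y axis, TMM-scaled CPM, a scale of its own for each gene) in 3 vehicle and 3 FGF1 mice of Day 1 and 2 vehicle and 2 FGF1 mice of Day 5, with a point for each mouse and a line at the mean. On Day 5 the mice separate by treatment for 7 of 8 members, all except Neu4, and on Day 1 for 1 of 5 tested, Nfasc; groups did not overlap for 39.8% of all genes on Day 5 and 12.4% on Day 1.

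In nuclei the authors labelled as oligodendrocytes no member passed. On Day 1, 0 of 4 tested passed (edgeR; 0.222% of genes called; DESeq2 called 0 members), although Bcas1 stood at 109, 158 and 228 CPM with FGF1 against 37.7, 59.0 and 64.9 CPM with vehicle, without overlap, as for 11.3% of genes (log2 difference 1.66 ± 0.36, FDR = 0.126). Bcas1, the only member there with an unadjusted p under 0.05, passed when Day 1 FGF1 mouse 1 was left out (FDR = 0.00262). On Day 5, 0 of 5 tested passed (edgeR and DESeq2; 0.119% of genes called), with 1 member at an unadjusted p under 0.05, namely Fyn (0.76 ± 0.30, FDR = 0.594). The difference between the days passed for 0 members, with Bcas1 (−1.28) and Enpp6 (3.16) at an unadjusted p under 0.05 (0.0% of 8914 genes called by edgeR, with 332 genes at an unadjusted p under 0.05, and 0 genes called by DESeq2). Oligodendrocyte nuclei numbered 329 and 296 on Day 1 and 537 and 213 on Day 5, in FGF1 and vehicle mice.

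Outside the lineage, edgeR called members in astrocyte-like and tanycyte-like cells on Day 5, most of them at shares of cells close to those in microglia-like cells. In astrocyte-like cells 3 of 4 tested members were higher, against 6.55% of genes. Fyn was at 153 ± 14.5 CPM with FGF1 and 92.6 ± 10.2 CPM with vehicle (SD, n = 6 each; log2 difference 0.73 ± 0.11, FDR = 4.9e-05), and Nfasc at 41.5 ± 12.1 against 18.3 ± 3.53 CPM (1.08 ± 0.19, FDR = 0.000439), neither with overlap (5.16% of genes did not overlap). Gpr17 was at 15.3 ± 8.56 against 6.75 ± 2.58 CPM (1.00 ± 0.31, FDR = 0.0314), a call lost without FGF1 mouse 21 (FDR = 0.0861) or 28 (FDR = 0.0741) or vehicle mouse 20 (FDR = 0.0799), 29 (FDR = 0.0603) or 35 (FDR = 0.0656). The summed COP genes that are no members were at 8.73 to 10.2 UMIs per 10000 in astrocyte-like cells with FGF1 and 6.52 to 7.34 with vehicle, OPC genes at 10.9 to 14.3 and 8.12 to 11.3, and mature genes at 2.56 to 4.13 and 2.22 to 7.41, and the part of such transcripts in the member values was not tested. The share of astrocyte-like cells with a Fyn UMI, 17.3% with FGF1 and 9.33% with vehicle, lay above the microglia-like shares of 8.97% and 5.75% (median depth of astrocyte-like cells 1073 and 1054 UMIs). Those of Gpr17 (1.48% and 0.718%) were below the microglia-like values of both groups. Those of Nfasc (4.45% and 1.96%) were close to the microglia-like value of 4.38% with FGF1 and below the 3.45% with vehicle. The part of free RNA in the Gpr17 and Nfasc values was not tested. The class is made of cluster 1, with 7940 vehicle and 1531 FGF1 cells, and cluster 4, led by the astrocyte gene Gfap, with 697 vehicle and 3412 FGF1 cells. The share of cells with a Fyn UMI was 12.998% with FGF1 and 9.07% with vehicle in cluster 1, and 19.2% and 12.3% in cluster 4, so that the mix of these clusters and the level in them cannot be told apart in the class values.

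In tanycyte-like cells 2 of 5 tested members were higher, against 2.29% of genes: Fyn at 56.6 ± 10.9 against 39.2 ± 4.16 CPM (0.50 ± 0.14, FDR = 0.038) and Tmem108 at 10.5 ± 5.07 against 5.69 ± 1.88 CPM (0.98 ± 0.29, FDR = 0.0495). Both overlapped between the groups. The share of tanycyte-like cells with a Fyn UMI was 8.42% with FGF1 and 5.69% with vehicle, below the microglia-like shares of 8.97% and 5.75%. The part of free RNA in it was not tested. For Tmem108 it was 1.84% and 0.865%, against 0.985% and 0.314% in microglia-like cells, which moved in the same direction (median depth of tanycyte-like cells 1394 and 1210 UMIs). Cluster 7 held 2728 of the 9204 tanycyte-like cells of FGF1 mice and 590 of the 5200 of vehicle mice. Mix and level therefore cannot be told apart in the class values, and single tanycyte-like clusters were not tested. The Fyn call was lost without FGF1 mouse 10, 21 or 28 or vehicle mouse 20, 25, 27, 29 or 35 (FDR up to 0.118). The Tmem108 call was lost without FGF1 mouse 21, 28, 36 or 7 or vehicle mouse 20, 22, 25, 27 or 29 (FDR up to 0.173), with DESeq2 (FDR = 0.0855) and with the batch as a block (FDR = 0.0673). In the other 6 whole-cell types 0 members passed by edgeR or DESeq2 (0.861% of gene tests called), with 1 value at an unadjusted p under 0.05. In nuclei 0 passed by either tool in the other 16 types of Day 1 (1.21% called; 5 values at an unadjusted p under 0.05) and the other 9 types of Day 5 (0.213% called; 4 values). Omitting a Day 5 nuclei mouse leaves a single mouse in its group, so calls from such fits are not read.

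The other 20 COP genes on the list used here to name the cluster were mostly higher in the pooled lineage and mostly did not pass within classes. Because they named the COP-like cluster, their pooled values are not independent of its larger share with FGF1. In the pooled lineage 16 of 19 tested were higher and 0 lower (median log2 difference 1.69), where 9.57% of all genes were higher. Within COP-like cells 1 of 18 was higher, against 0.743% of all genes. This was Sirt2, a deacetylase of oligodendroglia (0.71 ± 0.12, FDR = 0.000518), with a median of 0.06 for the list. In OPC-like cells Epb41l2, a membrane skeleton protein, was higher (0.84 ± 0.22, FDR = 0.0249; 1 of 12, against 94 of all 5529 genes). In oligodendrocyte-like cells Lims2, which overlaps Gpr17 on the opposite strand, was higher (1.07 ± 0.17, FDR = 0.0013; 1 of 15, against 1.13% of all genes). In OPC/COP nuclei 10 of 15 were higher on Day 5 (median 1.74), among them Cnksr3 (4.53), Sirt2 (2.77) and Mpzl1 (2.01), and 0 of 10 on Day 1. Of all genes there, 0.85% were higher on Day 5 and 0.0892% were called in either direction on Day 1.

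Of the genes of the BMP pathway, in which Bmp4 is a ligand, 0 of 7 tested passed in COP-like cells. In the pooled lineage 0 of 16 were higher and 3 lower (9.81% of all genes tested were lower), namely the ligand Bmp7 (−0.65), the inhibitor Smad7 (−0.47) and the target gene Id2 (−0.41), and in oligodendrocyte-like cells Id3, a target gene, was higher (0.79 ± 0.16, FDR = 0.00695; 1 of 14). Of the Src-family kinases, their regulators and substrates, around Fyn, Mapt, which encodes the microtubule protein tau, was higher in COP-like cells (0.66 ± 0.16, FDR = 0.0287; 1 of 9) and in oligodendrocyte-like cells (0.46, FDR = 0.0444; 1 of 11). In the pooled lineage 4 of these 11 were higher (Yes1, Csk, Mapt and Arhgap35, the last at 1.11) and 2 lower (Src at −0.53, and Ptpra), where 9.57% of all genes were higher and 9.81% lower.

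Among genes of the node and paranode, where neurofascin acts, Cntn1, the contactin that pairs with neurofascin across the axon and glial membranes, was lower in COP-like cells (−1.11 ± 0.19, FDR = 0.000531; 1 of 6). Mag, the myelin-associated glycoprotein, was higher in OPC/COP nuclei on Day 5 (1 of 9). Among the sialidases and ENPP enzymes, Enpp2 was higher in oligodendrocyte-like cells (0.44, FDR = 0.0358; 1 of 4). Beside these, 3 of 8 mature genes rose in oligodendrocyte-like cells, where 1.13% of all genes were higher. They were Mog (0.57), Opalin (0.73) and Cldn11 (0.70), all of myelin or its junctions and all among the 10 leading genes of cluster 11, whose share of the lineage was higher with FGF1. In oligodendrocyte nuclei of Day 1, 2 of 7 mature genes were lower, Mog (−1.56, FDR = 0.0358) and Aspa (−1.83, FDR = 0.0383), with a list median of −0.60. Of all genes in those nuclei, 0.222% were called in either direction. Of the OPC genes, 1 of 5 tested was lower in COP-like cells, Cacng4 (−1.43, FDR = 0.00627), with a list median of −0.30. In these cells 21 of all 4171 genes were lower. In OPC-like cells 1 of 8 was lower, C1ql1 (−0.69, FDR = 0.000679), with a list median of −0.25, where 1.54% of all genes were lower. Summed OPC gene UMIs, relative to all UMIs of the OPC-like cells, overlapped between the groups, with the higher median in FGF1 mice.

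For each member, the 3 genes whose level across 20 whole-cell clusters of vehicle mice was most like its own were found among 8082 genes, by Pearson's r of log levels. The points share libraries and depth, so the values are descriptive. Nfasc was nearest to Slc44a1 (0.956), Gm15440 (0.952) and Fcor (0.950), Fyn to Rnd2 (0.945), Fbxo8 (0.942) and Kank1 (0.926), and Neu4 to Matn4 (0.929), Brinp1 (0.917) and Dscam (0.916). Gpr17 was nearest to Elfn2 (0.879), Acap3 (0.875) and Fubp1 (0.872), Bcas1 to Srp19 (0.886), Ppp2r2a (0.860) and Gjc3 (0.854), and Tmem108 to Tuba1a (0.860), Tnr (0.844) and 4430402I18Rik (0.817). Enpp6 was nearest to 9530059O14Rik (0.812), Sirt2 (0.797) and Dpysl2 (0.785), and Bmp4 to Ptpn14 (0.799), Calu (0.778) and Msl1 (0.736). No member was among the 3 nearest genes of another.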

How the data were processed

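Each library held 1 mouse, so p-values cover the spread between mice. The authors deposited whole-number UMI counts per gene and barcode, made with Cell Ranger 1.2 on GRCm38 (introns included for nuclei; the labels also list GRCh38), and a cell table with clusters and batches. Per the labels and that deposited table, the authors computed mitochondrial and ribosomal UMIs as percent of the UMIs of each barcode. From whole cells they had removed neurons and doublets called by Scrublet; for nuclei the doublet step was omitted. Their log values were not used.

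Whole-cell clusters were named where at least 3 markers of a type, fixed without the members, reached 10% of cells and 2-fold over other clusters; clusters 18 and 20 were left out. Counts were added up per mouse and type (at least 10 cells per mouse, 2 mice per group) and tested with edgeR 4.0.16 (filterByExpr, TMM, robust quasi-likelihood, Benjamini-Hochberg over all genes tested). Shares were compared by two-sided exact permutation over all mice of both groups, without keeping to the batches. Similar genes were sought among those at 50 CPM or more in some cluster of at least 50 cells. The members and lists were chosen with earlier results of these data known. The text names all members, the list genes past the threshold in the 3 lineage classes (at most 4 per list) and 3 similar genes per member; list genes named for the pooled lineage or nuclei, and mature and OPC genes, were chosen after their values were seen. Alternatives were DESeq2 1.42.0, RLE scaling, no filter on low counts, omission of each mouse, batch and replicate blocks, a 20% limit on mitochondrial or ribosomal UMIs, at least 30 cells per mouse, and thinning to 750 UMIs per cell or a common number per nucleus. Free RNA was not removed. The scripts were tested on simulated data.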

Additional observations from a re-analysis of the deposited data

Results flagged for a closer look

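Of the 82 groups of 4 to 10 mice tested for a mouse far from the others, 4 held one, and chance flags about 1 in 20 groups. In COP-like cells, Nfasc of FGF1 mouse 21 stood at 1741 CPM, apart from the other 5 FGF1 mice at 2712 to 3290 CPM. In oligodendrocyte-like cells, Nfasc of FGF1 mouse 7 stood at 640.1 CPM, above the others at 319 to 428 CPM. Cluster 11 made up 56.0% of the lineage cells of FGF1 mouse 10, against 6.58% to 24.4% in the other FGF1 mice. Cluster 2 made up 43.2% of the lineage cells of vehicle mouse 27, against 55.9% to 62.5% in the other vehicle mice.

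The effect of FGF1 on Fyn in OPC/COP nuclei differed between the days, by 2.56 on the log2 scale (Day 5 minus Day 1), by a test of the difference itself. This call was lost with the batch as a block, after thinning and in some omissions of a single Day 1 mouse.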

How the results depend on the processing

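In the pooled lineage all 8 members passed in each of the 19 alternatives, and in every omission of a mouse the difference in the COP-like share stayed at the smallest p, between 21.6 and 26.1 points; it was 19.7 points for the share found without members and 24.1 points as a mean within batches, both chosen after seeing the data. In COP-like cells the number of members that passed (3) was 1 with RLE scaling, 5 without a filter, 0 after thinning, 1 with at least 30 cells per mouse and 0 to 4 over omissions of a mouse. The median log2 difference of all genes there moved from 0.02 to 0.32 without a filter and −0.37 with DESeq2. In OPC-like cells it (1) was 2 with DESeq2 and 0 to 2 over omissions. In oligodendrocyte-like cells it (1) was 1 to 2 over omissions and 0 in cluster 12 alone. In other whole-cell types it (5) was 8 without a filter and 2 to 5 over omissions. In oligodendrocyte nuclei of Day 1 it (0) was 1 without a filter and 0 to 1 over omissions. In OPC/COP nuclei of Day 5, over alternatives that kept all mice, the FDR reached 0.0578 for Enpp6 and 0.0692 for Bmp4, neither passing there. Omissions of a Day 5 nuclei mouse leave a single mouse in that group and are not counted. The difference between days (1) was 3 with DESeq2, 4 without a filter, 0 with the batch as a block, 0 after thinning and 0 to 4 over omissions of a Day 1 mouse. The share of cells with a UMI (0) was 8 without thinning.

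Among the member values, these directions turned, none of them past the threshold in the fit as reported, and the cause was not tested: in OPC-like cells Bcas1 (0.0358 thinned, −0.0627 to 0.0315 over omissions); in COP-like cells Gpr17 (0.21 without a filter, −0.30 to 0.15), Neu4 (−0.29 thinned, −0.0766 to 0.37) and Nfasc (0.33 without a filter, 0.0161 with the batch as a block, 0.20 with at least 30 cells, −0.18 to 0.16); in OPC/COP nuclei of Day 1 Fyn (0.30 thinned, −0.32 to 0.23), Bcas1 (−0.025 with at least 30 nuclei, −0.0371 to 0.65) and Neu4 (−1.22 to 0.16); and on Day 5 Neu4 (0.0732 without a filter, −0.22 to 0.0144).

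The replicate numbers of Day 1 nuclei gave no clear sign of paired mice. The correlation of deviations between same-numbered mice was −0.19, −0.21 and 0.20 in OPC/COP nuclei and −0.17, −0.30 and 0.22 in oligodendrocyte nuclei. With 3 mice per group, whose deviations depend on one another, these values cannot decide whether the mice were paired. In the fit with the replicate block 0 members passed. Few COP-like cells in vehicle mice, few OPC/COP nuclei on Day 1 and 2 mice per group in Day 5 nuclei limit what could be detected.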
